A study of Homo sapiens with 6 samples.

Results

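The myosin heavy, light and unconventional chain genes described here are all rows of the deposited gene table whose symbol is MYH, MYL or MYO followed by a number and at most 1 letter. The rule used names only and found 40 of 29790 genes, made up of 8 class II heavy chains, 10 light chains and 22 unconventional heavy chains. The libraries were made from RNA of A375, a human melanoma line in long use. The 3 fluvastatin libraries came from cells given 3 µM of this statin, an inhibitor of the mevalonate pathway that makes cholesterol and the lipid anchors of many small GTPases, for 24 h. The 3 control libraries came from untreated A375 cells grown alongside. Both groups were numbered 0, 1 and 2, and grew in RPMI1640 with serum. Whether the triplicates were separate cultures is not stated, so every p-value rests on variation among the sequenced libraries alone, and that variation may be technical.

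Myosins are the motor proteins that pull on actin filaments. Heavy chains of class II pair into 2-headed molecules that assemble into bipolar filaments and drive contraction, and each head carries an essential and a regulatory light chain. Phosphorylation of the regulatory light chain, by myosin light chain kinase and by the ROCK kinases, switches the filaments on. Most unconventional myosins do not form such filaments, and members of this group work in membrane traffic, membrane tension, filopodia and organelle transport. In pigment cells MYO5A is known for carrying melanosomes along actin.

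Values are FPKM, the number of fragments scaled to transcript length and to library size, so levels of different genes can be set beside each other. The steps between low values gave relative depths of 1.274, 1.513 and 1.404 for fluvastatin replicates 0, 1 and 2, and of 1.185 and 0.965 for control replicates 1 and 2, with control replicate 0 set to 1. By this estimate every fluvastatin library was deeper than every control library, so depth and treatment cannot be told apart in these libraries. The estimate is rough, since only 11.3% to 23.8% of the genes used lay near the most common ratio to control replicate 0. Of the 5 melanoma and melanocyte markers tested with limma, 2 were called higher, 1 was called lower and 2 did not pass. SOX10 averaged 71.98 FPKM in fluvastatin cells and 23.28 FPKM in controls, and NGFR 25.78 FPKM in fluvastatin cells and 16.75 FPKM in controls. SOX9 was the lower one, at 24.06 FPKM in fluvastatin cells and 41.85 FPKM in controls. The means were, for AXL, 317.6 FPKM in fluvastatin cells and 335.3 FPKM in controls, and, for MITF, 6.68 FPKM in fluvastatin cells and 7.18 FPKM in controls. The pigment genes TYR and MLANA had no row under these symbols in the values used, and PMEL stayed below 1 FPKM in every library. All 8 muscle markers with a row, such as DES, TTN and TNNT2, stayed below 1 FPKM in every library, with summed levels of 0.392 to 0.695 FPKM in fluvastatin cells and 0.405 to 1.127 FPKM in controls. Summed epithelial markers, mostly KRT14, were at 4.34 to 6.25 FPKM in fluvastatin cells and 0.871 to 1.09 FPKM in controls, summed fibroblast markers, mostly COL1A1, at 5.24 to 7.55 FPKM in fluvastatin cells and 9.54 to 12.9 FPKM in controls, and CD68, of the blood list, at 40.7 to 45.0 FPKM in fluvastatin cells and 24.6 to 29.7 FPKM in controls. CDH1 and COL3A1 were above 0 in 1 library each, and PTPRC had no row under this symbol. The part of these differences in the myosin results was not tested.

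Fluvastatin-treated cells had more myosin transcript than untreated cells, and the difference sat mainly in 1 light chain and in unconventional myosins. The share of unconventional myosins in the summed myosin level overlapped between the groups. MYO15B was 12.7-fold higher, MYO1E 2.23-fold, MYO5A 1.97-fold and the essential light chain MYL6 1.64-fold, as ratios of group means in FPKM. MYO19 was 1.43-fold lower. The heavy chain of nonmuscle myosin IIA, MYH9, rose by a small margin, while that of IIB, MYH10, had lower values in each fluvastatin library without passing the test. Summed over the 40 genes, the level was 2587, 2728 and 2616 FPKM in fluvastatin replicates 0, 1 and 2, against 2022, 1976 and 1949 FPKM in control replicates 0, 1 and 2, and the groups did not overlap. In bulk RNA, a change in the share of cells that express a gene and a change in RNA per cell cannot be told apart.

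Of the 40 genes, 24 had 3 or more libraries at 1 FPKM or higher and were tested with limma on log2(FPKM + 1) together with all other expressed genes, with Benjamini-Hochberg adjustment. A gene is said to have risen or fallen where its adjusted p was below 0.05. By this rule 7 myosin genes rose, 2 fell and 15 did not pass. Among all 14344 genes tested, 27.7% were called, 14.1% as higher and 13.6% as lower. The 9 of 24 myosin genes are to be read against that background, which holds more than 1 gene in 4. The median log2 fold change of the 24 was 0.31, beside -0.01 for all genes tested, and 19 of the 24 had a positive value. Those 24 are the genes high enough to test in either group, not the whole family. In 15 of the 24 the fluvastatin libraries all lay on 1 side of the controls, as they did in 44.8% of all genes tested. The treated libraries were also the deeper ones by estimate in every such case, and a fit with depth as a covariate is reported after the partner genes.

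**Figure D1:**
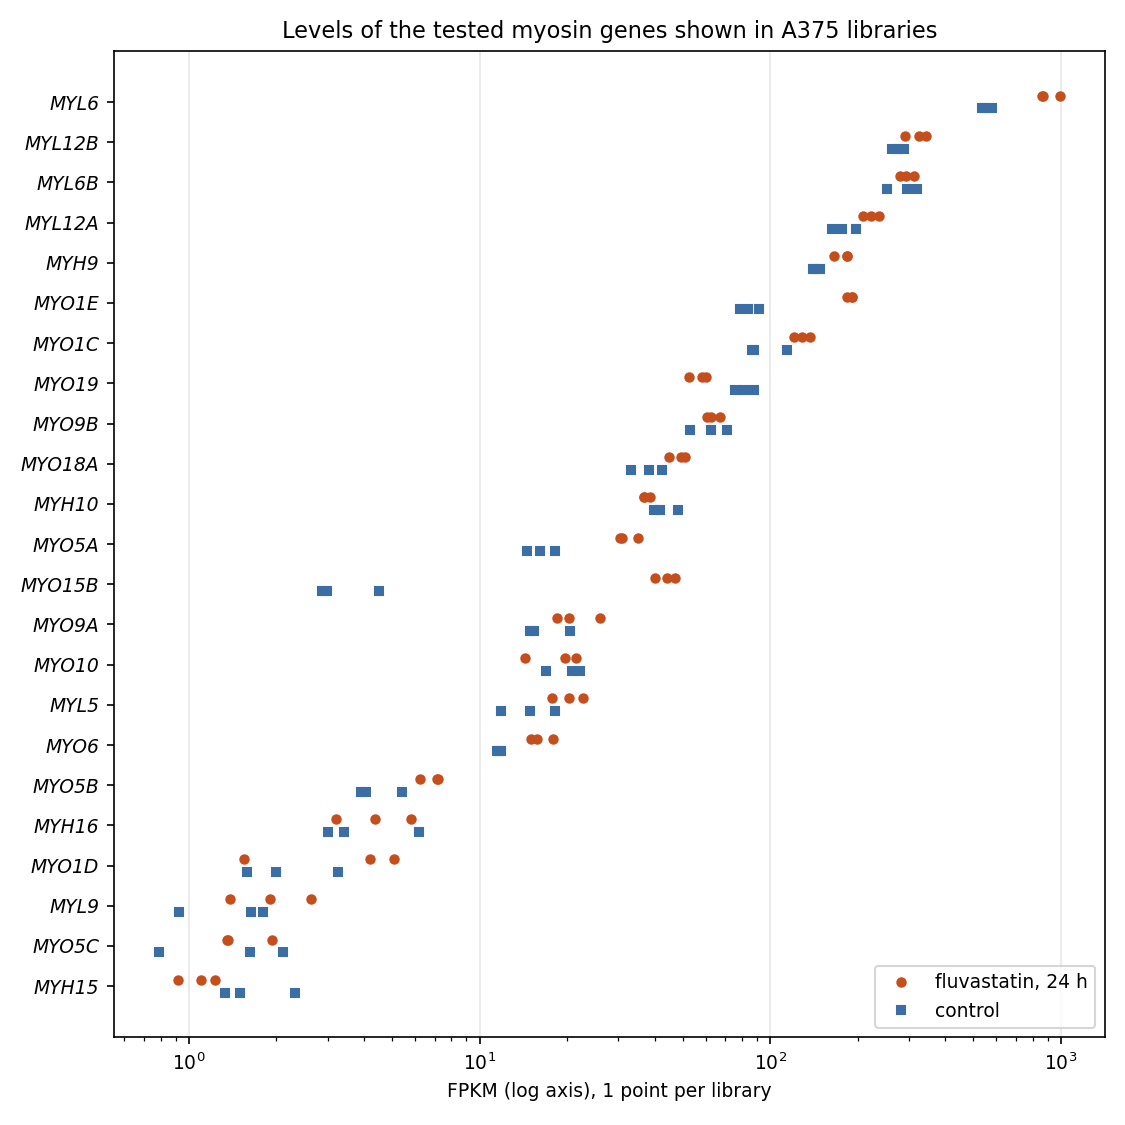
FPKM of 23 of the 24 tested myosin genes on a log axis, with 1 point per library, fluvastatin libraries as circles above control libraries as squares, ordered by mean level. MYL6 is the highest gene, and MYO15B has the widest gap between groups, at 40.26 to 47.07 FPKM in fluvastatin libraries and 2.87 to 4.52 FPKM in controls.

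**Figure D2:**
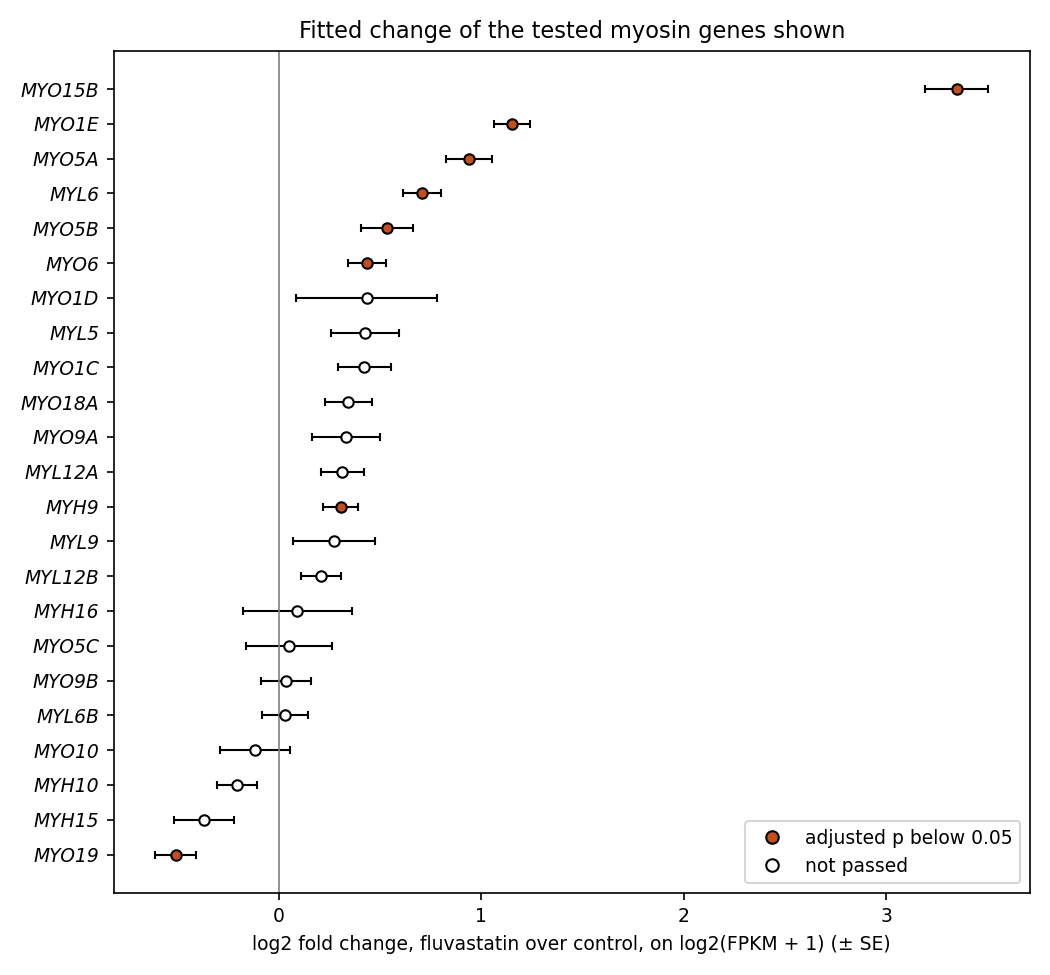
Fitted log2 fold change of fluvastatin over control on log2(FPKM + 1) for 23 of the 24 tested myosin genes, with bars of 1 SE and filled points for an adjusted p below 0.05. The values run between 3.35 for MYO15B and -0.51 for MYO19.

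Nonmuscle class II heavy chains build the contractile filaments of cells outside muscle. MYH9 was the leading one, at 184.0, 166.2 and 184.0 FPKM in fluvastatin replicates 0, 1 and 2 and at 141.7, 148.9 and 140.3 FPKM in control replicates 0, 1 and 2. All treated libraries were above all controls, and the fold was 1.24 (log2 fold change 0.31 ± 0.09 SE, limma adjusted p = 0.0408). This call was lost when any single library was left out, with adjusted p between 0.054 and 0.123, and the range over all 14 alternatives was 0.0143 to 0.42. MYH10 was at 36.79, 38.54 and 36.77 FPKM in fluvastatin libraries and at 48.27, 41.78 and 39.89 FPKM in control libraries. Its groups did not overlap either, in the opposite direction to MYH9, and its log2 fold change of -0.20 ± 0.10 (SE) did not pass (limma adjusted p = 0.177).

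MYH9 and MYH10 together made up nearly all of the nonmuscle heavy chain message. MYH10 made up 17.3 ± 1.25% of the summed MYH9, MYH10 and MYH14 level in fluvastatin cells and 23.1 ± 1.96% in controls (SD, n = 3 each). The difference was -5.77 percentage points, and the exact two-sided permutation test gave p = 0.1, the smallest value that 3 against 3 libraries allow. MYH14, the heavy chain of nonmuscle myosin IIC, was scarce and untested, at 0.556, 0.349 and 0.349 FPKM in fluvastatin libraries and 0.205, 0.272 and 0.187 FPKM in controls.

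Another 5 class II heavy chain genes had a row, and none reached 10 FPKM. MYH16, which encodes a jaw muscle myosin in other primates and is annotated as a pseudogene in human, stood at 3.20 to 5.82 FPKM in fluvastatin libraries and 3.00 to 6.18 FPKM in controls. MYH15 was at 1.23, 0.915 and 1.099 FPKM in fluvastatin libraries and 1.33, 1.503 and 2.31 FPKM in controls, a difference that did not pass (limma adjusted p = 0.116). The embryonic muscle gene MYH3 stayed below 0.7 FPKM in all libraries, and the smooth muscle gene MYH11 and the slow muscle-type gene MYH7B below 0.1 FPKM.

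Essential light chains stiffen the lever arm of the myosin head. MYL6, the form found in nonmuscle and smooth muscle cells, was the most abundant myosin transcript, with 867.8, 990.8 and 860.6 FPKM in fluvastatin replicates 0, 1 and 2 and 579.0, 546.6 and 537.4 FPKM in control replicates 0, 1 and 2. The lowest treated library was far above the highest control. MYL6 rose 1.64-fold, with a log2 fold change of 0.71 ± 0.09 (SE, limma adjusted p = 0.00337), and it passed with each library left out in turn. Of its exonic bases, 11.15% overlap SMARCC2 on the other strand, at means of 65.09 FPKM in fluvastatin cells and 62.22 FPKM in controls. The part of those reads in the MYL6 value was not tested. MYL6B, its neighbour on chromosome 12 and the other essential light chain of nonmuscle cells, was at 311.5, 279.0 and 292.5 FPKM in fluvastatin libraries and 318.8, 295.1 and 252.3 FPKM in controls. Those groups overlapped (log2 fold change 0.03 ± 0.11 SE, limma adjusted p = 0.857). MYL6 accounted for 75.4 ± 2.32% of the summed MYL6 and MYL6B level in fluvastatin cells and 65.8 ± 1.94% in controls (SD, n = 3 each), a share computed after the values were seen (exact two-sided permutation p = 0.1). The cardiac and skeletal forms MYL3 and MYL4 had values above 0 in 1 and 2 libraries.

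Regulatory light chains carry the sites that switch nonmuscle myosin on. MYL12B was at 289.8, 344.4 and 324.9 FPKM in fluvastatin libraries and 276.0, 263.4 and 288.8 FPKM in control libraries. MYL12A was at 208.0, 221.9 and 237.1 FPKM in fluvastatin libraries and 162.6, 176.0 and 197.9 FPKM in controls. In both genes every treated library was above every control, by 1.16-fold for MYL12B and 1.24-fold for MYL12A, and neither passed (limma adjusted p = 0.164 and 0.0704). MYL12A did pass in 5 of the 14 alternatives. Among these were the fit without control replicate 2 (limma adjusted p = 0.0441) and, with all libraries, trimmed mean of M-values scaling (0.0474) and quantile scaling (0.0461). The range over alternatives was 0.0314 to 0.525. MYL9, the smooth muscle-type regulatory chain and a known target of serum response factor (SRF), was low, at 1.899, 2.63 and 1.38 FPKM in fluvastatin libraries and 0.924, 1.801 and 1.64 FPKM in controls. MYL5 had 17.73, 22.74 and 20.34 FPKM in fluvastatin libraries and 11.83, 14.92 and 18.15 FPKM in controls. These values overlapped, and MYL5 passed without control replicate 2 (limma adjusted p = 0.0438, with a range of 0.0438 to 0.736 over all alternatives, against 0.107 with all libraries). Of the exonic bases of MYL5, 13.45% overlap ATP5ME, a gene on the other strand with mean levels of 286.8 FPKM in fluvastatin cells and 265.3 FPKM in controls, and reads of the pair cannot be told apart without strand information. The cardiac gene MYL2 and MYL10 stayed below 0.25 FPKM in every library.

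The light chains together were the bulk of the myosin message in every library. Essential light chains made up 45.4 ± 1.25% of the summed myosin FPKM in fluvastatin cells and 42.5 ± 1.94% in controls, with overlapping groups (SD, n = 3 each; exact two-sided permutation p = 0.2). Regulatory light chains made up 21.3 ± 1.198% in fluvastatin cells and 23.8 ± 1.94% in controls, and nonmuscle class II heavy chains 8.18 ± 0.572% in fluvastatin cells and 9.44 ± 0.208% in controls, each without overlap (exact permutation p = 0.1 in both). The regulatory shares nearly touched, at 22.318% in fluvastatin replicate 2 and 22.325% in control replicate 0. Only the shares were lower, since the summed levels of both classes were higher in fluvastatin cells. Regulatory light chains averaged 564.4 FPKM in fluvastatin cells and 471.5 FPKM in controls. For nonmuscle class II heavy chains the means were 215.9 FPKM in fluvastatin cells and 187.2 FPKM in controls. Unconventional heavy chains made up 24.8 ± 0.771% in fluvastatin cells and 23.9 ± 0.393% in controls, with overlapping groups (exact permutation p = 0.2). The ratio of essential to regulatory light chain level was 2.28, 2.15 and 1.98 in fluvastatin replicates 0, 1 and 2 and 1.99, 1.85 and 1.56 in control replicates 0, 1 and 2. These ratios overlap between the groups.

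**Figure D3:**
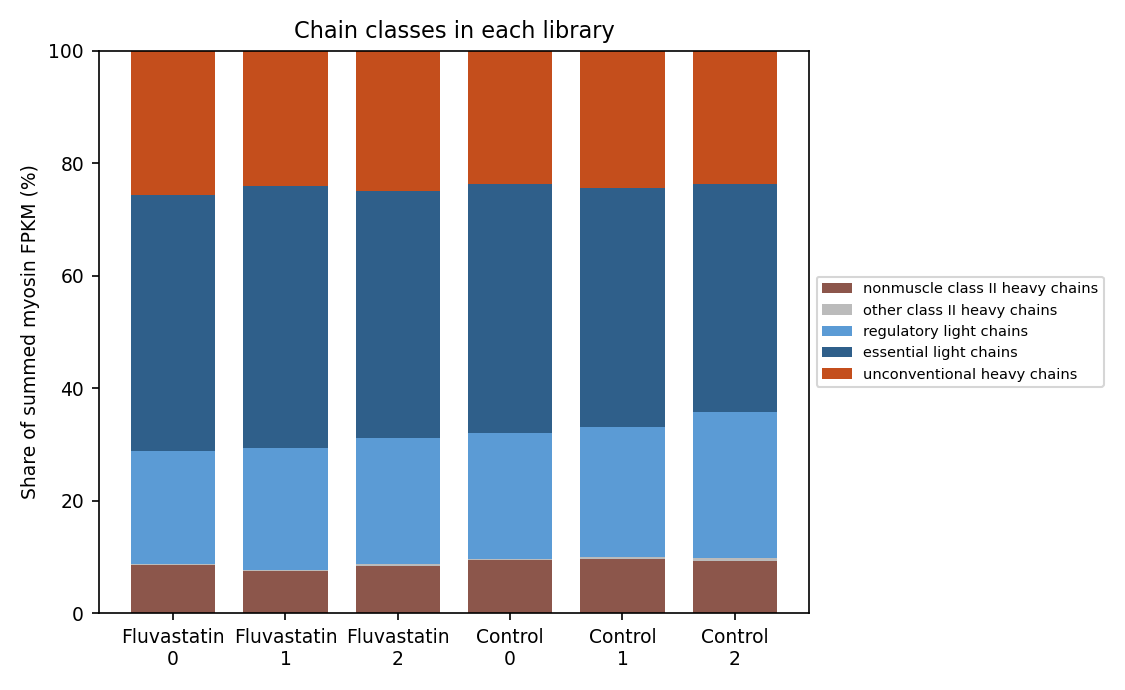
Share of the summed myosin FPKM, in percent, taken by each chain class in each of the 6 libraries, fluvastatin libraries on the left. Essential light chains are the largest class throughout, between 40.5% and 46.6%, and unconventional heavy chains take 23.6% to 25.6%.

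Unconventional heavy chains summed to 662.5, 656.5 and 650.3 FPKM in fluvastatin replicates 0, 1 and 2 and to 478.0, 481.7 and 463.2 FPKM in control replicates 0, 1 and 2, which is 1.38-fold higher after the drug. Of the 22 with a row, 14 were tested, 5 rose, 2 fell and 7 did not pass, beside 14.1% called higher and 13.6% called lower among all genes tested.

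MYO15B, a relative of the hair-cell myosin gene MYO15A, had the largest difference of the family. It was at 40.26, 47.07 and 44.29 FPKM in fluvastatin replicates 0, 1 and 2 and at 4.52, 2.87 and 3.00 FPKM in control replicates 0, 1 and 2. Every treated library was more than 8 times the highest control. The log2 fold change was 3.35 ± 0.16 (SE, limma adjusted p = 0.000128), which ranked 11 among the 14344 genes tested. MYO15B passed under all 14 alternatives, with log2 fold changes of 3.25 to 3.65, including the fit with estimated depth as a covariate (adjusted p = 0.0377). The gene lies on chromosome 17 at positions 75588058 to 75626501, plus strand, of GENCODE release 29 on GRCh38, with no exon shared with another gene, and 0.02% of its distinct 50-base words occur in transcripts of another gene. MYO15A itself was above 0 in 1 library only, fluvastatin replicate 0, at 0.134 FPKM.

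Class I myosins are single-headed and link actin to membranes. MYO1E, a long-tailed form that acts in endocytosis and in kidney podocytes, was at 184.3, 190.5 and 191.7 FPKM in fluvastatin libraries and 91.27, 78.77 and 83.65 FPKM in controls. The treated libraries were close together and all were over 2 times the highest control. MYO1E rose with a log2 fold change of 1.15 ± 0.09 (SE, limma adjusted p = 0.000578), and it passed with each library left out in turn. MYO1C, a short-tailed form that helps deliver the glucose transporter GLUT4 to the cell surface, had 128.3, 136.6 and 121.1 FPKM in fluvastatin libraries and 86.89, 113.9 and 88.07 FPKM in controls. Its groups did not overlap and it missed the threshold (log2 fold change 0.42 ± 0.13 SE, limma adjusted p = 0.0515). MYO1C passed in 4 of the 14 alternatives, among them without control replicate 1, the highest control (0.0222), and with quantile scaling of all libraries (0.0443). The range over alternatives was 0.0222 to 0.96. MYO1D, a class I form linked to left-right asymmetry in flies and fish, overlapped between groups at 5.09, 4.21 and 1.55 FPKM in fluvastatin libraries and 3.25, 1.99 and 1.59 FPKM in controls. The blood-cell forms MYO1F and MYO1G and the gut form MYO1A stayed below 0.1 FPKM in every library.

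Class V myosins walk toward the barbed end of actin and carry cargo on their tails. MYO5A, which binds melanosomes through RAB27A and melanophilin, was at 35.16, 30.37 and 30.80 FPKM in fluvastatin libraries and 14.56, 16.19 and 18.11 FPKM in controls. All treated values were above all control values. MYO5A rose with a log2 fold change of 0.94 ± 0.11 (SE, limma adjusted p = 0.00233), and passed with each library left out in turn. MYO5B, the motor of RAB11 recycling endosomes, was at 6.25, 7.15 and 7.20 FPKM in fluvastatin libraries and 3.91, 4.07 and 5.43 FPKM in controls, again without overlap (log2 fold change 0.53 ± 0.13 SE, limma adjusted p = 0.0251). Its call was lost with no filter on low values (0.0526) and without control replicate 0 (0.0667), control replicate 1 (0.0746), fluvastatin replicate 1 (0.0741) or fluvastatin replicate 2 (0.0766), and its range over alternatives was 0.0107 to 0.312. Of the exonic bases of MYO5B, 5.25% overlap AC090227.1 on the same strand and 2.18% overlap SNHG22 on the other strand. SNHG22 also rose, at means of 13.65 FPKM in fluvastatin cells and 6.93 FPKM in controls (limma adjusted p = 0.0266). The part of these reads in the MYO5B value was not tested. MYO5C, the form of exocrine epithelia, overlapped between groups at 1.35 to 1.92 FPKM in fluvastatin libraries and 0.788 to 2.12 FPKM in controls.

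MYO6 is the myosin that moves toward the pointed end of actin and acts in endocytosis and autophagy. It had 15.07, 15.73 and 17.93 FPKM in fluvastatin libraries and 11.89, 11.71 and 11.50 FPKM in controls. The controls lay within 0.4 FPKM of each other and below every treated library. MYO6 rose 1.39-fold (log2 fold change 0.44 ± 0.09 SE, limma adjusted p = 0.0167), and without control replicate 1 the adjusted p was 0.0502 (range over alternatives 0.0098 to 0.374).

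MYO19, the myosin anchored in the outer mitochondrial membrane, had the largest fall of the family. It was at 60.26, 58.36 and 52.45 FPKM in fluvastatin libraries and 87.80, 75.78 and 80.99 FPKM in controls, with no overlap. MYO19 fell by 0.51 ± 0.10 on the log2 scale (SE, limma adjusted p = 0.0125), and the call held with each library left out in turn. Its exons overlap 2 genes on the other strand. ZNHIT3 takes 7.99% of the exonic bases, at means of 28.20 FPKM in fluvastatin cells and 28.24 FPKM in controls. PIGW takes 4.45%, at means of 15.44 FPKM in fluvastatin cells and 22.37 FPKM in controls, and the part of these reads in the MYO19 value was not tested.

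The remaining abundant unconventional myosins did not pass. MYO9B was at 62.58, 60.39 and 67.10 FPKM in fluvastatin libraries and 52.92, 62.48 and 71.07 FPKM in controls. MYO9A, its relative, was at 25.92, 20.31 and 18.45 FPKM in fluvastatin libraries and 20.41, 14.95 and 15.43 FPKM in controls. Both sets of values overlapped. MYO10, the motor of filopodial tips, was at 21.51, 14.37 and 19.60 FPKM in fluvastatin libraries and 20.79, 22.20 and 16.98 FPKM in controls, also overlapping. MYO18A, which links the Golgi to actin, was at 51.07, 44.92 and 49.13 FPKM in fluvastatin libraries and 42.51, 38.24 and 33.31 FPKM in controls (log2 fold change 0.34 ± 0.12 SE, limma adjusted p = 0.0677). Its groups did not overlap, and 8.58% of its distinct 50-base words are shared with TIAF1, a gene within its locus.

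**Figure D4:**
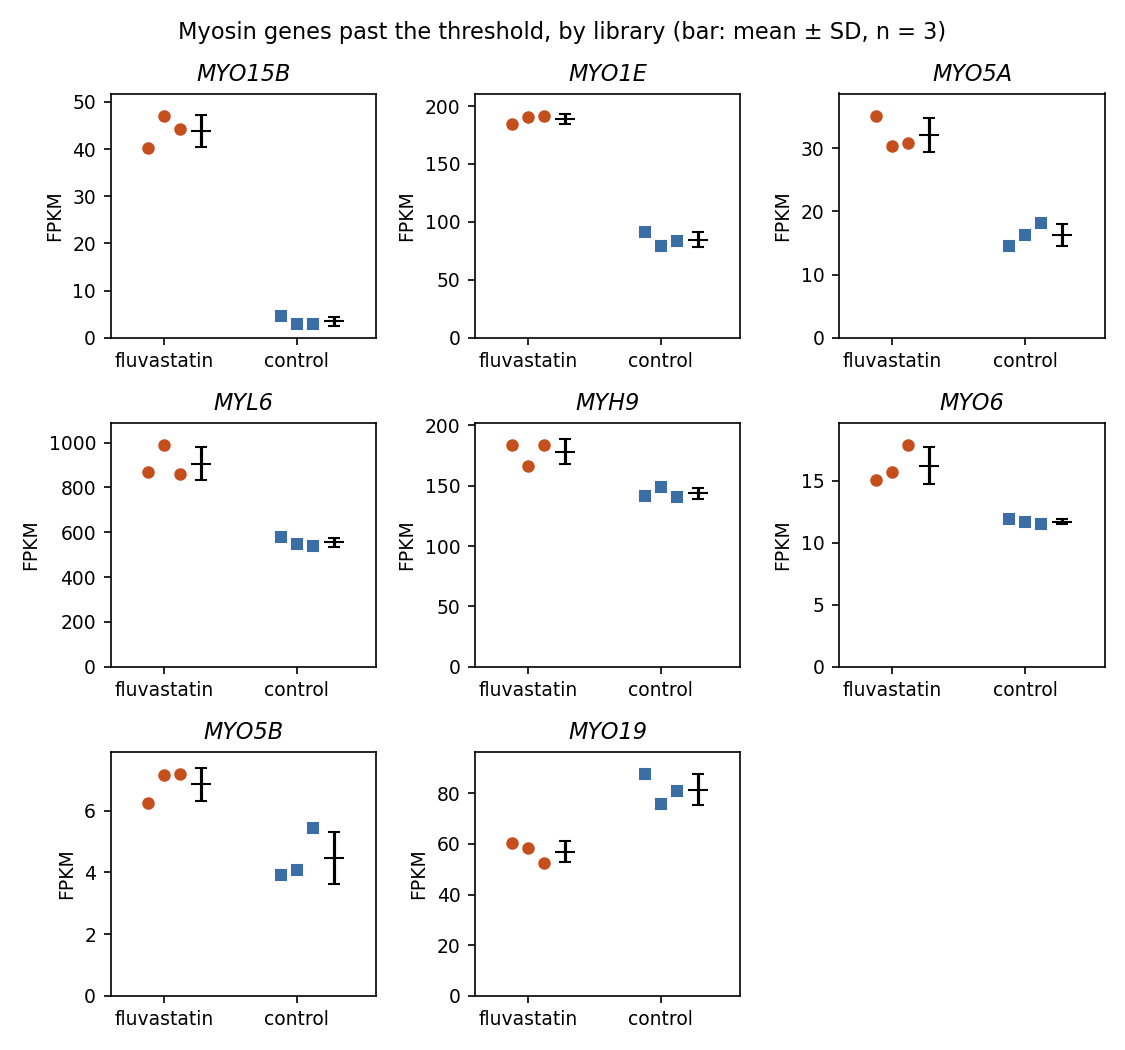
FPKM in each library of 8 of the 9 myosin genes past the threshold, fluvastatin on the left of each panel and control on the right, with the mean and SD of 3 libraries beside the points. In none of the 8 panels do the groups overlap. MYO19 is lower after fluvastatin.

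Below the filter lay 16 of the 40 genes, whose highest single value was 1.02 FPKM, of MYO7B in control replicate 1. Of these, 11 were listed at 0 in at least 1 library and 4 were above 0 in a single library, and an exact 0 in such a table can be a failed estimate. MYO7A, the Usher syndrome myosin, was at 0.252, 0.438 and 0.316 FPKM in fluvastatin libraries and 0.179, 0.180 and 0.169 FPKM in controls, so that its groups did not overlap at a very low level. The gut brush border form MYO7B was the highest of the 16, and the muscle form MYO18B was above 0 in 1 library. MYO16, known from brain, was at 0.234 to 0.317 FPKM in fluvastatin libraries and 0.265 to 0.394 FPKM in controls.

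RefSeq gave 300-base promoter windows on GRCh38.p14, 250 bases before to 50 after a gene start, for 29 of the 40 genes and for 8 of the 9 that changed. The 4 largest rises and the largest fall are shown, since they carry the differences above. Each runs 5′ to 3′ on the gene's strand, and capitals mark matches, on both strands, to any of 6 searched motifs: the CArG box of SRF, the TEAD motif GGAATG, the AP-1 motif TGANTCA, the KLF/SP box GGGCGG, the MITF motif TCANGTG and the CCAAT box CCAAT.
MYO15B promoter, chr17:75587550-75587849, plus strand: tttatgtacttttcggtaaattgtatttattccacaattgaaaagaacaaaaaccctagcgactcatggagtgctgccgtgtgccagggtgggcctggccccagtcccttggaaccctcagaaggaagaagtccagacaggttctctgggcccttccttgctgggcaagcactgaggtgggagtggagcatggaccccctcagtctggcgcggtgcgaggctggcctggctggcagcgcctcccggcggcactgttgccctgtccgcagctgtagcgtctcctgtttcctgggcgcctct
MYO1E promoter, chr15:59372822-59373121, minus strand: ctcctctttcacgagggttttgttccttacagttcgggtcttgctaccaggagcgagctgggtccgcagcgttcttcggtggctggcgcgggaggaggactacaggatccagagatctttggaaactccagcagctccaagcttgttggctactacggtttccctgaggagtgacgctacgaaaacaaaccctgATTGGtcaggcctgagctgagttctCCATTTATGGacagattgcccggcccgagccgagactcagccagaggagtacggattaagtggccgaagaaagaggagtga
MYO5A promoter, chr15:52529001-52529300, minus strand: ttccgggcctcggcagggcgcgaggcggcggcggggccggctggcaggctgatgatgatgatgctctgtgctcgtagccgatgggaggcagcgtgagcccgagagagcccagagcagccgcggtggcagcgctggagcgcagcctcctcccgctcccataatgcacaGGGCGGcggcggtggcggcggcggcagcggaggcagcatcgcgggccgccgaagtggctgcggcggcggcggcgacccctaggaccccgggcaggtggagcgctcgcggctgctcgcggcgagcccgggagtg
MYL6 promoter, chr12:56158109-56158408, plus strand: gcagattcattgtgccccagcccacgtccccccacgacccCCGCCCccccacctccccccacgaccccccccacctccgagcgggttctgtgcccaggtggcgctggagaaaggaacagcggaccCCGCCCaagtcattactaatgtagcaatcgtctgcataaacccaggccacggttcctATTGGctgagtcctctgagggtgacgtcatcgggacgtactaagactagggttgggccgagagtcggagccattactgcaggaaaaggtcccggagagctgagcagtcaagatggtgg
MYO19 promoter, chr17:36534819-36535118, minus strand: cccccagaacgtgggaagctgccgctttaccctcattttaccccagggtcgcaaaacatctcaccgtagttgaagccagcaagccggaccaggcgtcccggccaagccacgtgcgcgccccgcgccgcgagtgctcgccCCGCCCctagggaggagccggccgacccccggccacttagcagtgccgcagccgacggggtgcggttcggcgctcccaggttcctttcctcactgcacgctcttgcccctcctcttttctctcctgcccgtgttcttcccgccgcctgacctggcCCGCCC

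The MYO15B window held none of the 6 motifs, which says only that these letters are absent from this window. The RefSeq window of MYO15B ends before the GENCODE start of the gene at position 75588058. That of MYO19 lies inside the GENCODE gene, whose start on the minus strand is at position 36543435. Other starts of these genes were not searched. The MYO1E window held a CArG box, found in 1 of 30 windows of tested myosin genes and in 1.3% of all 35116 RefSeq windows, beside a CCAAT box (in 34.6% of all windows). MYO5A held 1 KLF/SP box, and MYL6 and MYO19 held 2 each, a motif found in 22 of the 30 myosin windows and 45.0% of all windows. Those 30 windows belong to 21 genes. G and C made up 76.0% of the MYO5A window, 68.7% of MYO19, 62.0% of MYL6, 58.7% of MYO15B and 55.3% of MYO1E. The median over all windows was 58.7%. The part of base content in the KLF/SP counts was not tested. None of the 8 windows of changed genes held an AP-1 or MITF motif, which stand in 7.7% and 12.5% of all windows. A TEAD motif, in 14.0% of all windows, occurred in 1 of the 8, that of MYH9. These are descriptions of sequence and not of binding.

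Genes that act on myosin were taken from 5 lists with 74 tested genes, of which 28 were called, again beside 27.7% of all genes. The call held with each library left out in turn in 17 of the 28, and without fluvastatin replicate 0 the number called was 17. Of 17 tested light chain kinases, phosphatase subunits and related genes, 3 rose, 2 fell and 12 did not pass, with a median log2 fold change of 0.16. Without fluvastatin replicate 0 the number that rose was 0, and without control replicate 1 or fluvastatin replicate 1 it was 1. Without control replicate 0, control replicate 1, fluvastatin replicate 0 or fluvastatin replicate 2 the number that fell was 1. The kinases with the best-known action on the regulatory light chain did not pass. MYLK averaged 37.91 ± 9.12 FPKM in fluvastatin cells and 36.85 ± 11.13 FPKM in controls, ROCK1 34.40 ± 3.91 FPKM in fluvastatin cells and 28.75 ± 0.775 FPKM in controls, and ROCK2 55.49 ± 5.26 FPKM in fluvastatin cells and 52.82 ± 5.01 FPKM in controls (SD, n = 3 each). MYLIP, a ubiquitin ligase that degrades the LDL receptor and was named for binding regulatory light chains, fell to 3.55 ± 0.365 FPKM in fluvastatin cells, against 5.90 ± 0.103 FPKM in controls (limma adjusted p = 0.00542). PPP1R12A, the targeting subunit of myosin phosphatase, was 1.28-fold higher (limma adjusted p = 0.0298), and that call was lost when any single library was left out (0.0524 to 0.0908). DAPK3, a kinase of the regulatory light chain, rose 1.48-fold (0.0201), which was lost without fluvastatin replicate 0 (0.0633) or 1 (0.0632). PPP1R14B, a phosphatase inhibitor, rose 1.33-fold (0.0199), lost without control replicate 1 (0.0534) or fluvastatin replicate 0 (0.0577) or 1 (0.0643). PPP1CC, a catalytic subunit, was 1.38-fold lower (0.0298), and that call went without control replicate 0 (0.0792), control replicate 1 (0.0785), fluvastatin replicate 0 (0.0874) and fluvastatin replicate 2 (0.0712). Over all alternatives the adjusted p ran over 0.0121 to 0.471 for PPP1R12A, 0.00866 to 0.55 for DAPK3, 0.00555 to 0.474 for PPP1R14B and 0.0103 to 0.191 for PPP1CC.

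Actin filament partners moved in both directions, since 8 of the 24 tested were higher past the threshold, 5 were lower past it and 11 missed it (median log2 fold change 0.19). Of all genes tested, 14.1% were called higher and 13.6% lower. The number higher was 4 without fluvastatin replicate 0 or 1 and 5 without control replicate 1, control replicate 2 or fluvastatin replicate 2. LIMCH1, an actin-associated protein known to activate nonmuscle myosin II, fell to 14.30 ± 0.345 FPKM in fluvastatin cells, against 51.36 ± 1.22 FPKM in controls. CNN2, a calponin, fell to 26.54 ± 3.114 FPKM in fluvastatin cells, against 51.61 ± 1.25 FPKM in controls. S100A4, a calcium-binding protein that binds MYH9 and disassembles its filaments, rose to 391.9 ± 41.6 FPKM, against 167.1 ± 5.24 FPKM in controls (SD, n = 3 in each of these; limma adjusted p between 0.000107 and 0.00184 for the 3). CNN1, the smooth muscle calponin, is 1 of the 8 and entered the test only through its fluvastatin libraries, since all 3 controls lay below 1 FPKM, so a difference was built into its selection and its call supports nothing. It stood at 1.23 ± 0.212 FPKM in fluvastatin cells and 0.210 ± 0.132 FPKM in controls, and it was high enough to test in only 3 of the 6 fits that left out a library. The cytoplasmic actins were both lower after fluvastatin. ACTG1 fell to 926.2 ± 66.0 FPKM, against 1437 ± 117 FPKM in controls (limma adjusted p = 0.00679). ACTB was at 1918 ± 67.6 FPKM, against 2340 ± 74.1 FPKM in controls (0.0411), a call that was lost when any single library was left out (0.059 to 0.12, range over all alternatives 0.00918 to 0.372).

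Of 26 tested cargo adaptors and calmodulins, 6 rose, 0 fell and 20 did not pass (median log2 fold change 0.22). Those counts stand beside 14.1% called higher and 13.6% called lower among all genes tested. OPTN, the optineurin adaptor of MYO6, rose to 33.27 ± 2.80 FPKM in fluvastatin cells, against 9.76 ± 1.095 FPKM in controls (limma adjusted p = 0.000374). GIPC1 and TOM1L2, related to MYO6 cargo binding, rose 1.56-fold and 1.55-fold (limma adjusted p = 0.0087 and 0.00455). GULP1, an engulfment adaptor, rose 1.58-fold (0.00393), and RAB27B, a relative of the MYO5A partner RAB27A, rose 2.18-fold (0.00844). Of the melanosome partners of MYO5A, RAB27A and MLPH did not pass (limma adjusted p = 0.305 and 0.125).

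Of 4 tested genes listed as myosin chaperones, 3 fell, beside 13.6% called lower among all genes tested (median log2 fold change -0.73). The HSP90 genes HSP90AA1 and HSP90AB1 were 1.89-fold and 1.46-fold lower and the co-chaperone FKBP4 2.06-fold lower (limma adjusted p = 0.00169, 0.00623 and 0.00114), while the myosin-specific UNC45A did not pass (0.618). HSP90 serves many clients besides myosin. SRF, the transcription factor of many actin genes, fell to 11.50 ± 0.607 FPKM in fluvastatin cells, against 15.22 ± 0.606 FPKM in controls (limma adjusted p = 0.0199; SD, n = 3 each). SRF did not pass when control replicate 0 (0.0559), control replicate 1 (0.0652), fluvastatin replicate 0 (0.0711) or fluvastatin replicate 2 (0.0566) was omitted, and its range over all alternatives was 0.0115 to 0.195. Its co-activators MKL1 and MKL2 did not pass (0.787 and 0.552).

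**Figure D5:**
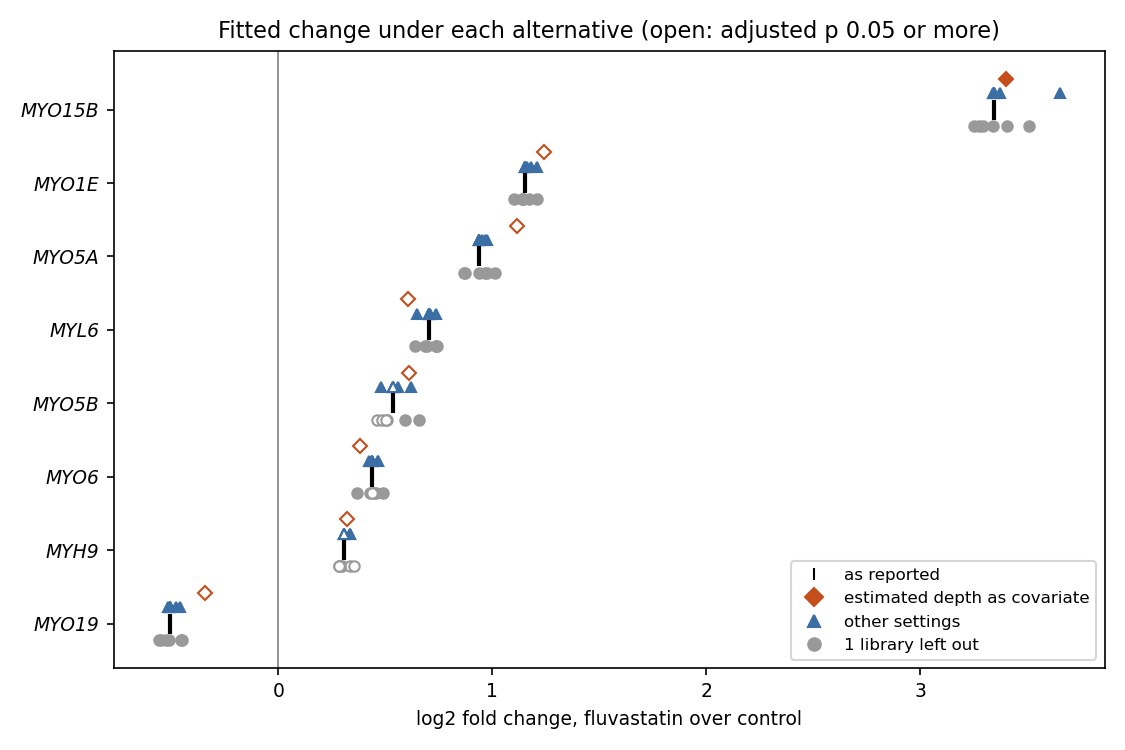
Log2 fold change of fluvastatin over control for 8 of the 9 myosin genes past the threshold, as reported (bar) and under each alternative, with open symbols where the adjusted p was 0.05 or more. The sign is the same in every fit, and with estimated depth as a covariate MYO15B is the only one of these genes that passes.

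Because the fluvastatin libraries were deeper by estimate, the fit was repeated with relative depth added to the model. MYO15B then kept its call, and the other 8 did not, although no sign changed. MYO1E had a log2 fold change of 1.24 ± 0.20 (SE, limma adjusted p = 0.0715), MYO5A 1.12 ± 0.24 (0.108) and MYL6 0.60 ± 0.21 (0.204). MYO19 moved to -0.34 ± 0.21 (0.422). The standard errors were larger than without the covariate in each of these 4 genes. Among all genes that fit called 70, against 3971 without the covariate.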

How the data were processed

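STAR, Cufflinks and Cuffdiff, with the hg38 build, are the tools named per the submitters' processing notes. Versions, annotation release and strand setting are not given in the sources used here. The deposited values carry no unit name and were taken as FPKM from those tools and because the values are not whole. Each column was matched to a sample by its title. A gene entered the test with 3 or more of 6 libraries at 1 FPKM or higher. The test was limma (version 3.58.1, R 4.3.3) on log2(FPKM + 1), two-sided and without a replicate block, with Benjamini-Hochberg adjustment over 14344 genes at 0.05. The pseudocount of 1 understates changes of low genes in the log2 fold changes. The fit was tested on simulated data. Alternatives were trimmed mean of M-values (TMM) and quantile scaling, a pseudocount of 0.1, other filters, trend and robust eBayes, a replicate block, depth as a covariate and leaving out each library. Relative depth is the most common ratio of values between libraries among genes at 0 somewhere, and absolute fragment numbers are unknown. Gene coordinates and exons come from GENCODE release 29, where all 40 identifiers matched without their version and 12 versions differed. Values per library were given for every called gene and the 12 highest, and for others where they bear on a comparison. Of each partner list, up to 5 called genes with the smallest adjusted p were named, plus MYLK, ROCK1, ROCK2, PPP1R12A, SRF, ACTB and ACTG1. Among the called genes, 1 myosin gene and 1 partner gene that these rules name are not reported here and not drawn, but stay in the counts. Others were named after their values were seen. Myosin genes and partner lists were chosen with earlier results of these data known.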

Additional observations from a re-analysis of the deposited data

How the results depend on the processing

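The direction of all 9 called myosin genes was the same in all 14 alternatives. With estimated depth as a covariate limma called 1 myosin gene higher and 0 lower (4 and 1 at an unadjusted p below 0.05), 1 partner gene was called, and 70 genes in all, and MYL9 and MYO5C turned to log2 fold changes of -0.14 and -0.15. Leaving out 1 library gave 5 to 8 myosin genes higher, 1 to 2 lower, 17 to 26 partner genes and 2277 to 3483 genes in all. It gave log2 fold changes of -0.061 to 0.11 for MYL6B, -0.073 to 0.14 for MYO9B, -0.23 to 0.045 for MYO10, -0.082 to 0.35 for MYH16 and -0.17 to 0.23 for MYO5C, none of which passed. With quantile normalization the share of unconventional heavy chains differed by 1.56 percentage points, against 0.922. The other 6 settings gave 6 to 10 myosin genes higher and 2 lower, and with a variance trend MYO1C, MYL12A and MYO18A passed (limma adjusted p = 0.0224, 0.0314 and 0.0373). With the replicate number as a block, 6 myosin genes were higher and 2 lower, and MYH9 lost its call (adjusted p = 0.0903). Same-numbered libraries deviated together with correlations of -0.002, 0.085 and 0.084, so the numbers were not taken to pair the libraries. The cause of these differences was not tested. FPKM without fragment counts allow no counting error for single values, which is largest for the genes near 1 FPKM.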

Other observations

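The genes beside MYO15B on chromosome 17 were looked up after the MYO15B values were seen. RECQL5, a DNA helicase gene on the other strand that ends 344 bases away, was at 20.14, 17.16 and 19.47 FPKM in fluvastatin replicates 0, 1 and 2 and 13.66, 23.87 and 17.43 FPKM in control replicates 0, 1 and 2 (limma adjusted p = 0.807). LLGL2, a cell polarity gene 12850 bases upstream on the same strand, was at 3.61, 4.31 and 4.38 FPKM in fluvastatin libraries and 1.47, 1.98 and 2.86 FPKM in controls. Its 1.95-fold rise passed (limma adjusted p = 0.0223) and held in 3 of the 6 fits without 1 library, with adjusted p up to 0.0696. With estimated depth as a covariate LLGL2 did not pass (limma adjusted p = 0.357). SMIM5, 6933 bases downstream, was untested, at 0.103, 0.263 and 0.341 FPKM in fluvastatin libraries, whereas it was listed at 0, 0.0376 and 0 FPKM in controls. SMIM6, 19742 bases downstream, was also untested, at 0.0782, 0.0670 and 0 FPKM in fluvastatin libraries and 0 FPKM in every control.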
